A study of Mus musculus with 2 samples.

Results

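The cells described here are 74 of the 4295 CD45+ cells kept from mouse brown adipose tissue (BAT), 37 of 2279 from the control and 37 of 2016 from the Adipo Δ/Δ mice. They were chosen by measured values, the summed counts of *Cd7*, *Xcl1* and *Nrgn* in each cell. Transcripts were counted as unique molecular identifiers (UMIs), where 1 UMI stands for 1 captured molecule. A barcode was included when it held at least 200 detected genes, at most 10% mitochondrial UMIs and at least 3 UMIs of the 3 genes together. It also had to lack any UMI of *Klra4*, *Klra8* and *Prf1*, which mark natural killer (NK) cells, of *Csf1r*, a growth factor receptor of monocytes and macrophages, of *Cd79a*, a chain of the B cell receptor, and of *Cd8a*, *Cd8b1* and *Cd4*, the coreceptors of conventional T cells. This choice was meant to hold innate-like lymphocytes. The data bore that out for some of the cells only, so they are called *Cd7*/*Xcl1*/*Nrgn* cells.

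CD45+ Dapi- cells, meaning live leukocytes, were sorted from collagenase-digested BAT and captured as 1 droplet library per group. All mice were male C57Bl/6 animals that carried AdipoQ-CreERT2 and ATGLfl/fl, 16 weeks old by the labels and younger by the text of the study. Control mice received vehicle, and Adipo Δ/Δ mice received tamoxifen, injected every 2 days over 1 week and followed by 2 weeks without injection. The study asked how loss of ATGL, a triglyceride lipase, from adipocytes alters the leukocytes of BAT. The adiponectin promoter drives the Cre in adipocytes, so the leukocytes themselves were not its target, and *Pnpla2*, the gene of ATGL, does not check the labels here. The *Cd7*/*Xcl1*/*Nrgn* cells of the control held 6 UMIs of *Pnpla2* and those of Adipo Δ/Δ 12. As CPM, the UMIs of a gene scaled to 1000000 UMIs of the class, this is 24.0 and 37.8. Tamoxifen was given to 1 group only, so exposure to it and loss of ATGL cannot be told apart. The number of mice per library is not given in the sources used here. With 1 library per group, no difference has an error between mice, no test was possible, and all intervals in parentheses are exact 95% intervals that cover counting error only.

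Innate-like lymphocytes respond quickly to cytokines and stress ligands, without the clonal selection on which conventional T cells depend. They include NK cells, which kill target cells with perforin and granzymes, innate lymphoid cells, which live in tissues and release cytokines without an antigen receptor, and γδ T cells, which carry a T cell receptor of γ and δ chains together with the CD3 complex. *Cd7* encodes a surface protein of the immunoglobulin superfamily found on T cells, NK cells and their precursors. *Xcl1* encodes lymphotactin, a chemokine of activated T and NK cells that attracts cross-presenting dendritic cells. *Nrgn* encodes neurogranin, a calmodulin-binding protein best known from neurons.

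The libraries held 11327187 UMIs in 2597 barcodes for the control and 12028844 UMIs in 2381 barcodes for Adipo Δ/Δ, with medians of 3678 and 3942 UMIs per kept cell. The *Cd7*/*Xcl1*/*Nrgn* cells were deeper, with medians of 6143 UMIs (range 703 to 15333) and 8164 UMIs (1811 to 29139). In all they held 250163 and 317236 UMIs, so that a gene without any UMI could still be present at up to 11.99 and 9.46 CPM, the level of 3 UMIs. The libraries shared 4 barcodes, none of them in these cells. For comparison, NK-like cells were taken as cells with at least 3 UMIs of *Klra4*, *Klra8* and *Prf1* together (205 and 166 cells), and T-like cells as cells with at least 2 UMIs of *Cd8a*, *Cd8b1* and *Cd4* together (123 and 89 cells). Both lacked the other excluding genes, and their median depths were 6305 and 6551 UMIs for NK-like and 5145 and 7011 UMIs for T-like cells. Cells with at least 3 UMIs of *Cd79a* (B-like, 223 and 70 cells, medians of 1935 and 2549 UMIs) or of *Csf1r* (476 and 550 cells, medians of 6368 and 6383 UMIs) gave the background that free RNA leaves in cells which should lack a lymphoid gene.

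The 3 selecting genes were rarely together in 1 cell. *Cd7* (chromosome 11, 121036747 to 121039418, minus strand, GRCm38) had UMIs in 27 control and 28 Adipo Δ/Δ cells, with up to 32 and 20 UMIs in 1 cell. *Xcl1* (chromosome 1, 164931644 to 164935527, minus strand) had UMIs in 15 and 24 cells, with up to 39 and 58 in 1 cell. *Nrgn* (chromosome 9, 37544492 to 37552904, minus strand) had UMIs in 11 and 14 cells, with up to 40 in 1 cell of each library. Only 2 control and 7 Adipo Δ/Δ cells held all 3 genes, while 14 and 8 held *Cd7* alone and 8 and 4 held *Nrgn* alone. The sum of the 3 had medians of 6 (control) and 9 (Adipo Δ/Δ), with highest values of 92 and 84. Just inside the threshold, 5 control and 7 Adipo Δ/Δ cells had a sum of 3, with median depths of 3477 and 8668 UMIs. Just outside it, 16 and 4 cells had a sum of 2 and met the other conditions, with medians of 2950 and 2848 UMIs. The exclusions took away more cells than they left. Of 187 control and 166 Adipo Δ/Δ cells with a sum of at least 3, 54 and 56 lacked *Klra4*, *Klra8* and *Prf1*, and 45 and 48 of these also lacked *Csf1r*. All of the latter lacked *Cd79a*, and the last step, lack of *Cd8a*, *Cd8b1* and *Cd4*, left 37 and 37. NK-like cells held *Xcl1* as well, at 825 and 969 CPM in 96 of 205 and 95 of 166 cells, so *Xcl1* alone did not set the cells apart. *Nrgn* was at 54.4 and 65.7 CPM in NK-like cells, and all 53 of its UMIs in Adipo Δ/Δ T-like cells came from 1 cell.

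Together the *Cd7*/*Xcl1*/*Nrgn* cells were 1.62% (1.15 to 2.23) of the kept control cells and 1.84% (1.30 to 2.52) of those from Adipo Δ/Δ mice. The ratio of these shares, Adipo Δ/Δ over control, was 1.13 (0.697 to 1.83), which counting error alone could give. For NK-like cells the same ratio was 0.915 (0.741 to 1.13), and for T-like cells 0.818 (0.616 to 1.08).

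The cells were of at least 4 kinds, set apart after their values were seen and therefore given as a description. The first, called *Cd74*/*Cst3* cells, held at least 20 UMIs in sum of the MHC class II genes *Cd74*, *H2-Aa*, *H2-Ab1* and *H2-Eb1* and of *Cst3*, *Lyz2* and *Ifitm3*, which are genes of antigen-presenting and myeloid cells. The second, CD3-bearing cells, held at least 2 UMIs of the CD3 chains *Cd3d*, *Cd3e* and *Cd3g*, which carry the signal of every T cell receptor. The third, NK receptor cells, held at least 1 UMI of *Ncr1* or *Klrb1c*, which encode the activating receptor NKp46 and NK1.1. Cells with none of these formed the rest, and each cell was placed by the first criterion that it met. The *Cd74*/*Cst3* cells numbered 7 (control) and 11 (Adipo Δ/Δ), the CD3-bearing cells 11 and 9, the NK receptor cells 9 and 14 and the remaining cells 10 and 3. As shares of the *Cd7*/*Xcl1*/*Nrgn* cells, these were 18.9% (7.96 to 35.2) and 29.7% (15.9 to 47.0), 29.7% (15.9 to 47.0) and 24.3% (11.8 to 41.2), 24.3% (11.8 to 41.2) and 37.8% (22.5 to 55.2), and 27.0% (13.8 to 44.1) and 8.11% (1.70 to 21.9). The intervals of the libraries overlapped for each kind. Relative to all kept cells, the share of remaining cells in Adipo Δ/Δ was 0.339 times (0.0600 to 1.32) that in the control, and the share of NK receptor cells 1.76 times (0.709 to 4.61).

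**Figure D1:**
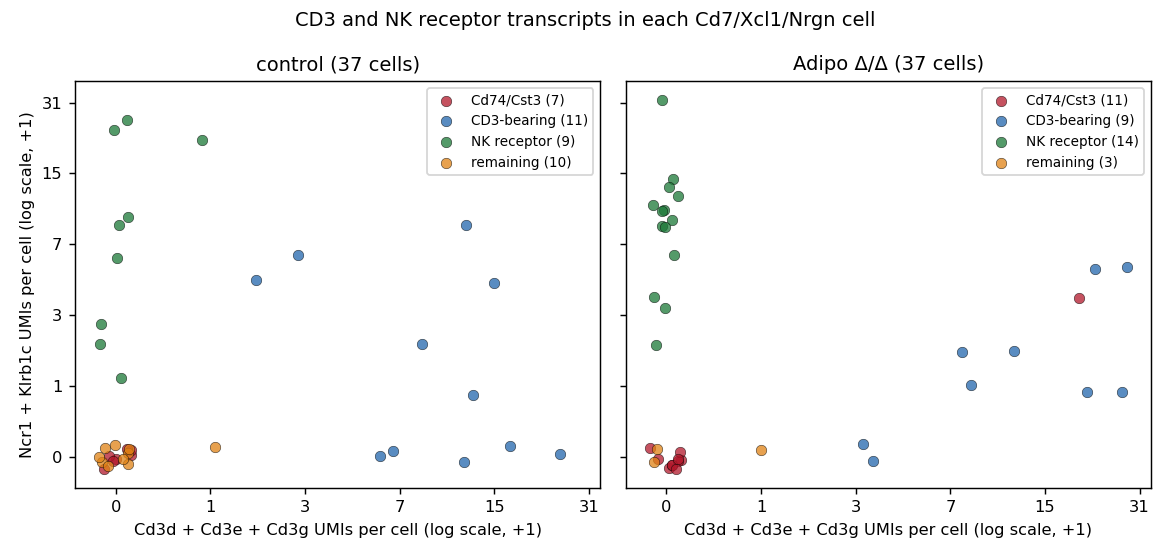
Each point is 1 *Cd7*/*Xcl1*/*Nrgn* cell, by its summed UMIs of *Cd3d*, *Cd3e* and *Cd3g* (horizontal axis) and of *Ncr1* and *Klrb1c* (vertical axis), on log scales with 1 added and a small sideways and upward scatter against overlap, in the control (left) and Adipo Δ/Δ library (right). NK receptor cells run up the left edge with at most 1 CD3 UMI, CD3-bearing cells lie to the right with up to 22 and 26 CD3 UMIs, and *Cd74*/*Cst3* and remaining cells sit at the origin except for 1 Adipo Δ/Δ cell with 21 CD3 UMIs and 1 remaining cell per library with 1 CD3 UMI.

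CD3 transcripts were found in a minority of the *Cd7*/*Xcl1*/*Nrgn* cells. The choice of cells did not use CD3 itself but left out cells with a *Cd8a*, *Cd8b1* or *Cd4* UMI. A share below that of T-like cells was therefore in part built in. At least 1 UMI of *Cd3d*, *Cd3e* or *Cd3g* was present in 35.1% (20.2 to 52.5) of the control cells and 29.7% (15.9 to 47.0) of those from Adipo Δ/Δ. The same share was 98.4% and 95.5% in T-like cells, which are chosen by T cell coreceptors, and 4.88% and 9.64% in NK-like cells. It was 1.35% and 2.86% in B-like and 2.52% and 2.91% in *Csf1r* cells, which sets the background. After thinning each cell to 1000 UMIs, which left out 3 shallower control cells and no Adipo Δ/Δ cell, the share was 23.8% and 22.5%, against 84.9% and 84.1% in T-like and 1.57% and 2.93% in NK-like cells. Presence of CD3 did not follow depth in 1 direction, since cells with a CD3 UMI had medians of 5633 and 8206 UMIs and those without 6293 and 8096 UMIs. Outside the *Cd74*/*Cst3* and CD3-bearing cells, 2 control cells and 1 Adipo Δ/Δ cell held a single CD3 UMI.

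The constant chain of the T cell receptor δ chain, *Trdc* (chromosome 14, 54142851 to 54148868), was detected in 4 control cells, 10.8% (3.03 to 25.4), and in 8 Adipo Δ/Δ cells, 21.6% (9.83 to 38.2). NK-like cells gave 26.3% and 27.7%, so detection of *Trdc* alone did not mark a γδ T cell. It was 0 of 223 and 0 of 70 in B-like cells, where the limit of 3 counts allows 1.35% and 4.29% of cells with a UMI and the exact interval 1.64% and 5.13%, and 0.210% and 0.182% in *Csf1r* cells. Thinned to 1000 UMIs, the shares were 7.58% and 6.72% in the *Cd7*/*Xcl1*/*Nrgn* cells and 4.84% and 5.67% in NK-like cells. The UMIs of *Trdc* were concentrated: 43 of 44 in the control and 30 of 41 in Adipo Δ/Δ came from 3 and 2 CD3-bearing cells. In NK-like cells 74 and 70 UMIs were spread over 54 and 46 cells.

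The γ constant chains gave another pattern. At least 1 UMI of *Tcrg-C1*, *Tcrg-C2* or *Tcrg-C4*, all on chromosome 13, was present in 43.2% (27.1 to 60.5) of control and 48.6% (31.9 to 65.6) of Adipo Δ/Δ *Cd7*/*Xcl1*/*Nrgn* cells, against 2.44% and 4.22% of NK-like and 4.07% and 4.49% of T-like cells. Thinned to 1000 UMIs, 14.03% and 15.9% of the cells held one, against 0.515% and 0.815% of NK-like and 1.77% and 1.23% of T-like cells. None of 223 and 70 B-like cells did, with the same limits as for *Trdc*, and 0.210% and 0.182% of *Csf1r* cells did. These transcripts were present in several kinds: in 63.6% and 66.7% of CD3-bearing, 44.4% and 64.3% of NK receptor and 50% and 66.7% of remaining cells. *Tcrg-C4* alone had 20 UMIs in 12 control and 40 UMIs in 13 Adipo Δ/Δ cells, while all NK-like cells together held 7 and 8. Over the last 500 bases of their transcripts, *Tcrg-C1* and *Tcrg-C2* share 24.0% of all 55-base windows and neither shares any with *Tcrg-C4*, so a split of UMIs between the first pair is uncertain.

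*Trac*, the constant chain of the α chain (chromosome 14, 54220521 to 54224206), was detected in 4 control and 8 Adipo Δ/Δ cells, 10.8% and 21.6%. NK-like cells gave 11.2% and 10.8% and T-like cells 69.9% and 86.5%. *Trbc1* or *Trbc2*, the β constant chains, were detected in 54.1% and 70.3%, and in 73.7% and 83.1% of NK-like cells.

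**Figure D2:**
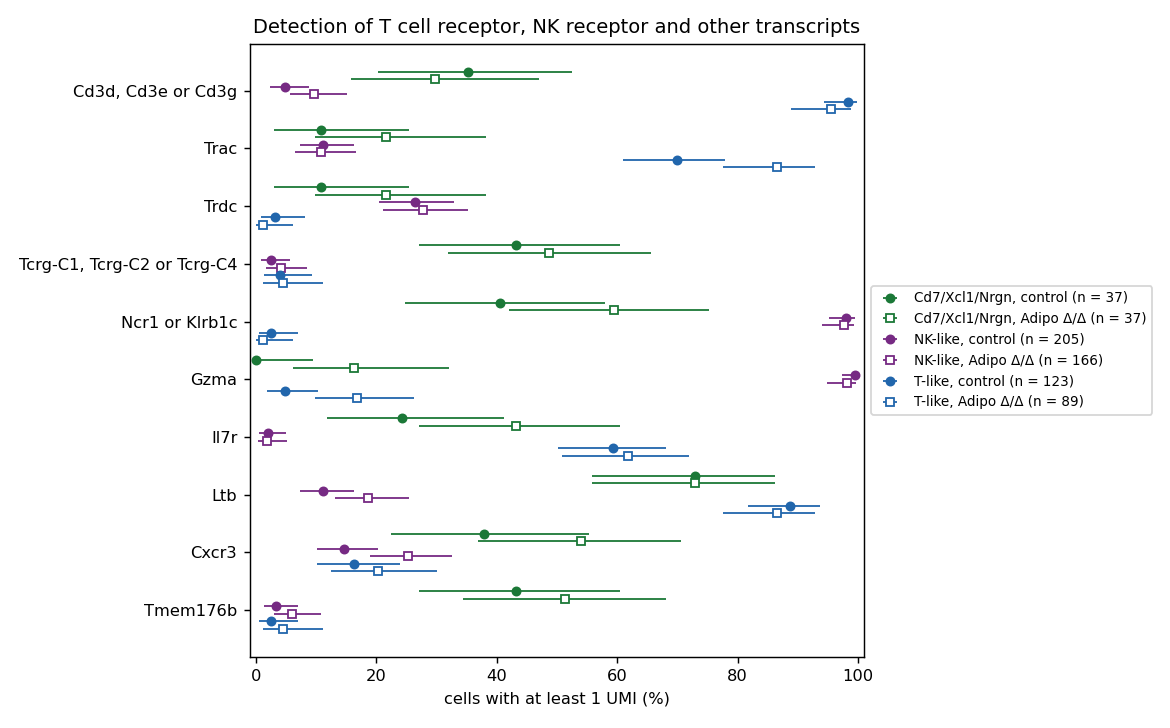
Share of cells (percent) with at least 1 UMI of each gene or gene group in *Cd7*/*Xcl1*/*Nrgn*, NK-like and T-like cells, with exact 95% intervals as bars, for the control (filled circles) and Adipo Δ/Δ library (open squares). The γ constant chains and *Tmem176b* are highest in the *Cd7*/*Xcl1*/*Nrgn* cells, CD3 chains lie between NK-like and T-like cells, and *Gzma* was found in none of 37 control cells and 99.5% of control NK-like cells.

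The CD3-bearing cells held a median of 12 CD3 UMIs in both libraries, with a range of 2 to 22 in the control and 3 to 26 in Adipo Δ/Δ. Of the 11 control cells, 4 held *Trac* and no *Trdc*, 3 held *Trdc* and no *Trac*, and 4 held neither. Of the 9 Adipo Δ/Δ cells the numbers were 6, 2 and 1, and no cell of either library held both. The 3 control cells with *Trdc* held 19, 10 and 14 UMIs of it beside 12, 3 and 7 UMIs of the γ constant chains. The 2 Adipo Δ/Δ cells held 5 and 25 UMIs beside 7 and 19. These 5 cells carried transcripts of both chains of a γδ receptor, whereas 10 cells carried *Trac*. The split was not clean for the other chains. The 5 cells also held β constant chain UMIs, 5, 3 and 2 in the control and 5 and 24 in Adipo Δ/Δ. Some cells with *Trac* held γ constant chain UMIs, up to 3 in 1 cell. Lack of the coreceptors was required by the choice. NK receptors were present too, since 6 of 11 and 7 of 9 CD3-bearing cells held *Ncr1* or *Klrb1c* and were placed here only by the order of the criteria, against 2.44% and 1.12% of T-like cells.

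Set against T-like cells, CD3-bearing cells had 38 of 1377 genes (2.76%) at least 2-fold higher and 22 (1.60%) at least 2-fold lower in both libraries, where genes with at least 50 UMIs over both classes were counted and the genes of the choice were left out. Because T-like cells were chosen by *Cd8a*, *Cd8b1* and *Cd4* and CD3-bearing cells by lacking them, genes that go with the coreceptors had to differ. *Fcer1g*, a signalling adaptor of NK and mast cells, was 15.8-fold (10.4 to 24.1) higher in the control and 9.72-fold (6.02 to 15.7) in Adipo Δ/Δ. *Il2rb*, the chain that NK cells use to sense interleukin 15, was 6.68- and 4.34-fold higher. *Id2*, a regulator that innate lymphoid cells need, was 4.29- and 4.31-fold higher, *Ahnak* 5.89- and 3.37-fold, and *Klrd1*, the CD94 receptor chain, 3.01- and 3.18-fold. *Ccl5*, a chemokine stored by memory and NK cells, was at 7997 CPM in 10 of 11 control and 5982 CPM in 7 of 9 Adipo Δ/Δ cells, 4.70- and 3.20-fold above T-like cells. *Dapl1*, a gene of naive T cells, had no UMI in the CD3-bearing cells and 298 and 268 in T-like cells, at least 8.92- and 8.27-fold lower. *Ccr7*, which guides naive T cells to lymph nodes, had 1 UMI and none.

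The NK receptor cells held *Ncr1* in 9 of 9 cells (control) and 14 of 14 (Adipo Δ/Δ), although *Klrb1c* alone would have qualified. The sum of both receptors ran from 1 to 24 UMIs (median 8) in the control and from 2 to 32 (median 9) in Adipo Δ/Δ. Yet *Gzma*, a granzyme that nearly every NK-like cell held in large amounts, was absent from the 9 control cells and gave 5 UMIs in 3 of the 14 Adipo Δ/Δ cells, at most 3 in 1 cell. NK-like cells held 15425 and 12683 UMIs of *Gzma*, 11336 and 10280 CPM, in 204 of 205 and 163 of 166 cells. The level of *Gzma* was therefore at least 365-fold lower in the control and 223-fold lower in Adipo Δ/Δ. The choice of cells had not used *Gzma* itself. It did require lack of *Klra4*, *Klra8* and *Prf1*, which NK-like cells were chosen by, so part of this deficit may be built in. How large that part is was not tested. Over all *Cd7*/*Xcl1*/*Nrgn* cells, *Gzma* was found in 0 of 37 control cells, where the limit of 3 counts allows 8.11% of cells with a UMI and the exact interval 9.49%, and in 16.2% of Adipo Δ/Δ cells. B-like cells gave 3.14% and 8.57% and *Csf1r* cells 6.93% and 9.46%, so that these traces were of the order of background. Median depths of NK receptor cells were 12617 and 7790 UMIs, above the 6305 and 6551 UMIs of NK-like cells.

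Other genes of mature NK cells were low in the NK receptor cells as well. Of 3636 genes, 79 (2.17%) were at least 2-fold lower and 22 (0.605%) at least 2-fold higher than in NK-like cells in both libraries. NK-like cells were chosen by *Klra4*, *Klra8* and *Prf1*, which the NK receptor cells had to lack, so a deficit of genes that accompany those 3 was built into the comparison. Among cytotoxic effectors, 6 of 10 genes were lower and none higher. *Gzmb*, the granzyme that cuts caspases, had 2 and 8 UMIs against 1648 and 1492, and *Nkg7*, a protein of cytotoxic granules, was at 0.321 and 0.499 times the NK-like level. Of 20 NK receptor genes, *Klra3*, *Klra7*, *Klra9* and *Klrg1* were lower and *Cd226* higher. *Klra3* and *Klra9* share 55-base windows, so their UMIs may be split between them. *Itgam* and *Cma1* had no UMI in either library, at least 6.30- and 7.79-fold lower for *Itgam*, the integrin CD11b, and at least 8.05- and 6.999-fold lower for *Cma1*, a mast cell protease that NK-like cells also held. Of 17 transcription factors, 3 were lower. *Eomes*, a T-box factor of NK cells, had 1 and 7 UMIs against 313 and 287 in NK-like cells, and *Zeb2*, a factor of terminal maturation, 1 and 13 against 701 and 545. *Irf8* was at 0.104 and 0.170 times the NK-like level.

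Genes above the NK-like level in the NK receptor cells were fewer. *Ltb*, the lymphotoxin β of lymphoid tissue inducer and innate lymphoid cells, had 41 UMIs in the control cells and 83 in those of Adipo Δ/Δ, 9.46-fold (6.21 to 14.3) and 5.28-fold (4.02 to 6.88) higher. *Cxcr3*, the receptor for interferon-induced chemokines, had 37 UMIs in 8 of 9 and 28 UMIs in 12 of 14 cells, 8.14-fold (5.28 to 12.4) and 5.22-fold (3.21 to 8.30) higher. *S100a4*, a calcium-binding protein of motile cells, was found in every NK receptor cell and was 7.16-fold (6.12 to 8.35) and 4.23-fold (3.56 to 5.00) higher. *Cd226*, the adhesion receptor DNAM-1, was 4.99- and 2.74-fold higher, *Maf*, a transcription factor, 3.05- and 3.79-fold, and *Cd27*, a receptor lost as NK cells mature, 2.24- and 2.39-fold. *Itga1*, the integrin CD49a that marks tissue-resident cells, was detected in 7 of 9 and 5 of 14 cells, 77.8% and 35.7%, against 3.90% and 3.61% of NK-like cells. *Tmem176b*, a membrane protein of innate lymphoid and dendritic cells, was at 145 and 332 CPM against 6.61 and 38.1 CPM. *Cxcr6*, a chemokine receptor of resident lymphocytes, had 5 UMIs in 2 and 17 UMIs in 4 cells, while the many more NK-like cells held 1 and 9 UMIs. *Il7r*, the interleukin 7 receptor of most innate lymphoid cells, had 2 and 19 UMIs.

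**Figure D3:**
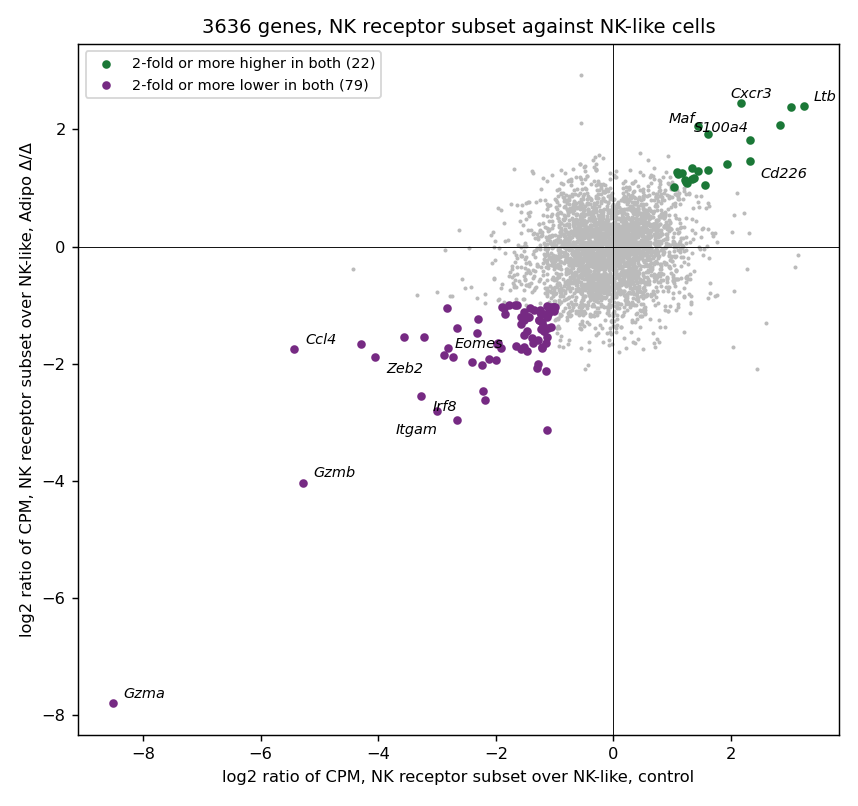
Each point is 1 of 3636 genes, by the log2 ratio of its level in NK receptor cells over NK-like cells in the control (horizontal axis) and Adipo Δ/Δ library (vertical axis). Green points are the 22 genes at least 2-fold higher and purple points the 79 genes at least 2-fold lower in both libraries, with *Ltb*, *Cxcr3* and *S100a4* among the former and *Gzma*, *Gzmb* and *Zeb2* among the latter; genes under 3 UMIs in a class are drawn at 3 UMIs.

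Single cells carried much of some totals in the NK receptor cells. In the control, 1 cell of 14991 UMIs held 115 of the 139 UMIs of *Mki67* and *Top2a*, genes of dividing cells. The highest *Nrgn* count of each library, 40 UMIs, was in an NK receptor cell, with 32 UMIs of *Cd7* and 20 of *Xcl1* in the control cell and 35 of *Xcl1* in the Adipo Δ/Δ cell. In Adipo Δ/Δ, all 63 UMIs of the chemokine *Ccl1* came from 1 cell. *Xcl1* itself was present in 7 of 9 control cells and in 14 of 14 Adipo Δ/Δ cells, where 3 UMIs were the lowest value and 58 the highest.

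The remaining cells were mostly chosen through *Nrgn*. Of 10 control and 3 Adipo Δ/Δ cells, 8 and 2 held *Nrgn* alone of the selecting genes, with at most 5 UMIs, and their median depths were 3468 and 8029 UMIs. *Gata3*, *Il1rl1* or *Arg1* were present in 8 of 10 and 2 of 3, the same numbers as for *Gata3* alone. *Gata3* was also present in 26.8% and 47.6% of NK-like and 17.9% and 24.7% of T-like cells, and *Il1rl1* was present in 1.47% and 12.7% of *Csf1r* cells. *Gata3* encodes the transcription factor of group 2 innate lymphoid cells, *Il1rl1* the interleukin 33 receptor ST2 and *Arg1* arginase 1, which those cells also make. In the control cells *Il1rl1* had 20 UMIs in 6 cells (521 CPM) and *Arg1* 18 UMIs in 5 cells (469 CPM), while all control NK-like cells held 1 and none and T-like cells none of either. In the 3 Adipo Δ/Δ cells *Il1rl1* had 3 UMIs in 1 cell and *Arg1* none. Another Adipo Δ/Δ cell, of 6800 UMIs, held 12 *Nrgn*, 5 *Gata3*, 3 *Il1rl1* and 4 *Arg1* UMIs. It was placed with the CD3-bearing cells by its 3 CD3 UMIs. In the remaining cells *Ly6a*, the stem cell antigen Sca-1, was at 781 and 962 CPM and *Il7r* at 573 and 962 CPM. There *Id2* was at 1588 and 962 CPM and *Tmem176b* at 625 and 1054 CPM. These genes are shared by innate lymphoid cells of several groups. *Il2ra*, the high-affinity interleukin 2 receptor chain, had 9 UMIs in 5 control cells and 1 UMI in Adipo Δ/Δ, and *Klrg1* had 11 and 2. *Ncr1*, *Klrb1c* and *Gzma* were at 0 in the remaining cells, the first pair by the way the cells were set apart. The fewer remaining cells in Adipo Δ/Δ leave a floor of 137 CPM for a gene without UMIs there.

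The *Cd74*/*Cst3* cells went against the intended cell type. They were chosen through *Cd7* in the main, which was the only selecting gene in 7 of 7 cells (control) and 8 of 11 (Adipo Δ/Δ), at 4 to 12 UMIs per control cell. No control cell and 1 Adipo Δ/Δ cell among them held a CD3 UMI. *Cd74*, the invariant chain of MHC class II, had 431 UMIs (8436 CPM) and 2225 UMIs (17871 CPM). *Cst3*, the protease inhibitor cystatin C, was at 5852 and 5277 CPM, against 150 and 167 CPM in NK-like cells. The MHC class II sum ran from 0 to 416 UMIs per control cell and from 1 to 1096 per Adipo Δ/Δ cell, and 5 of 7 and 10 of 11 cells held at least 20. *Cd209a*, a lectin of dendritic cells, had 27 UMIs in 6 control and 89 UMIs in 7 Adipo Δ/Δ cells and at most 2 UMIs in all NK-like or T-like cells of a library. *Flt3*, the growth factor receptor of dendritic cells and their precursors, had 11 and 17 UMIs. The sum that defined these cells was at least 25 and 20 inside and at most 9 and 11 outside. One Adipo Δ/Δ cell of 25485 UMIs held 21 CD3, 4 *Trdc*, 53 *Ccl5* and 662 MHC class II UMIs at once. It was the only *Cd74*/*Cst3* cell with a CD3 UMI, and whether it holds the RNA of more than 1 cell was not tested beyond a doublet caller that marked 0.308% and 0.168% of barcodes, none of them among these 74 cells. The *Cd74*/*Cst3* cells held 20.4% of all UMIs of the *Cd7*/*Xcl1*/*Nrgn* cells in the control and 39.2% in Adipo Δ/Δ, which bears on every summed value that follows.

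**Figure D4:**
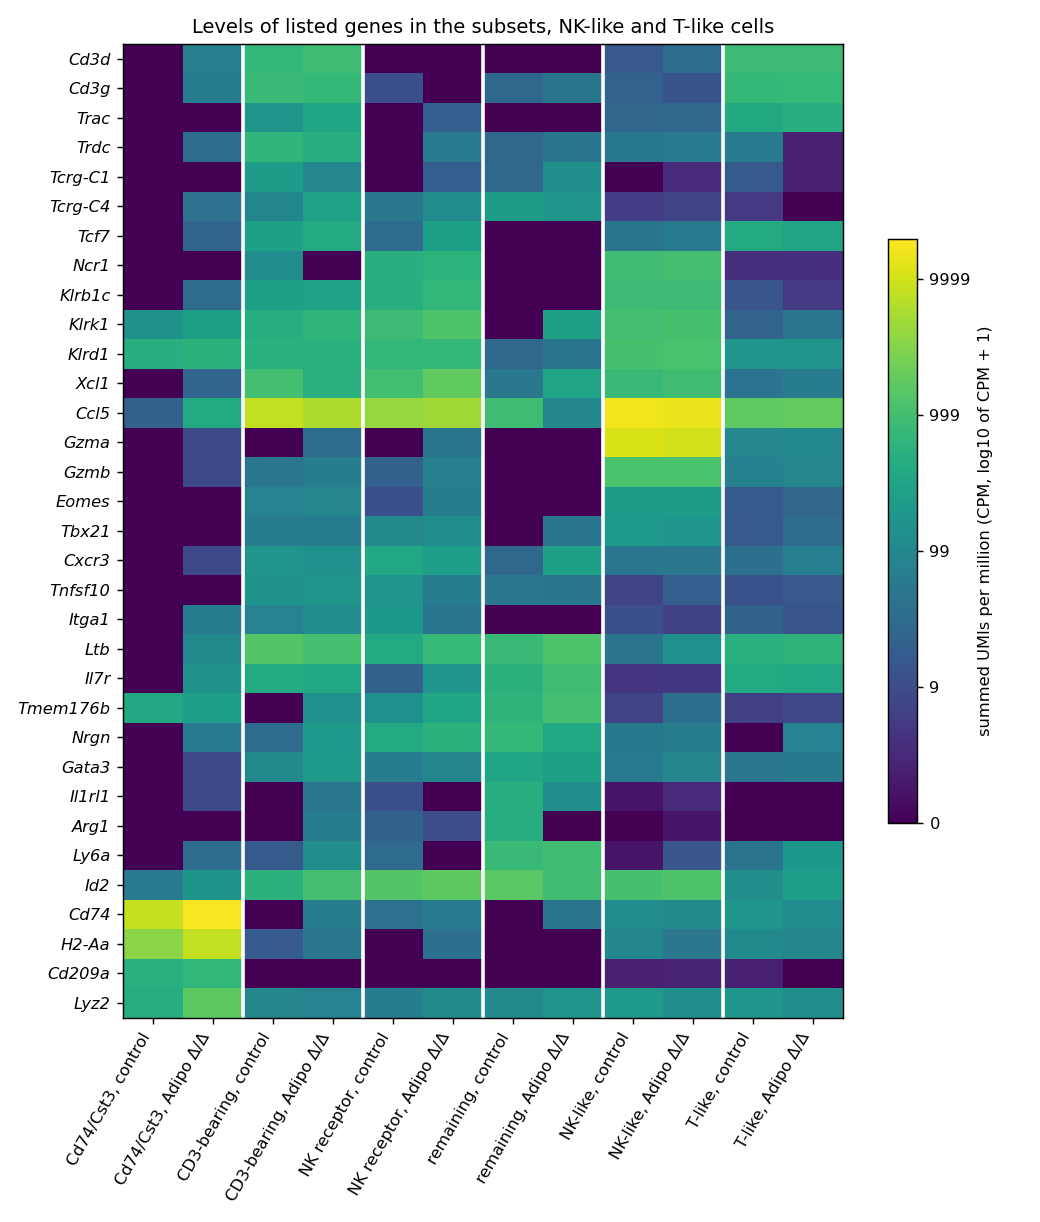
Levels of 33 listed genes as log10 of CPM plus 1 (colour) in the 4 kinds of *Cd7*/*Xcl1*/*Nrgn* cells, NK-like and T-like cells, each with the control column left of the Adipo Δ/Δ column. *Gzma* and *Gzmb* are brightest in NK-like cells, *Cd74* and *H2-Aa* in *Cd74*/*Cst3* cells and *Trdc* in CD3-bearing cells, and *Il1rl1* and *Ly6a* stand out in the remaining cells; the darkest fields are genes without a UMI.

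Taken as 1 class, the *Cd7*/*Xcl1*/*Nrgn* cells had 57 of 3979 genes (1.43%) at least 2-fold higher and 178 (4.47%) at least 2-fold lower than NK-like cells in both libraries. With 1 UMI in each class as the only minimum, 833 genes were higher and 226 lower, where fewer than 3 UMIs still counted as 3. The balance of directions against NK-like cells thus depended on the minimum. Against T-like cells, 94 of 1881 genes (5.00%) were higher and 44 (2.34%) lower. With CPM computed without mitochondrial and ribosomal protein genes, the T-like numbers were 52 higher and 62 lower, so the balance of directions against T-like cells depended on the scaling. Without the *Cd74*/*Cst3* cells, 29 of 3820 genes (0.759%) were higher and 127 (3.32%) lower than in NK-like cells, and 76 of 1723 (4.41%) higher and 38 (2.21%) lower than in T-like cells. Above both classes lay 26 genes, and for 22 of them over 50% of the UMIs came from the *Cd74*/*Cst3* cells. These included *H2-DMb1*, a peptide-loading chaperone of MHC class II (38.8- and 46.7-fold above NK-like cells), *Alox5ap*, needed for leukotriene synthesis (12.1- and 24.1-fold), *Ifi30*, a lysosomal thiol reductase (18.3- and 24.6-fold), *Ms4a6c* (8.61- and 13.4-fold) and *Ifitm2* (12.3- and 53.9-fold). *Wfdc17* was 9.95- and 94.9-fold and *Ifitm3* 9.24- and 62.4-fold higher. *Tmem176b* differed from them in that 32.9% of its UMIs came from *Cd74*/*Cst3* cells. It was 35.0- and 8.27-fold above NK-like and 41.3- and 42.6-fold above T-like cells.

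Below both classes lay 6 genes. By summed level they were *Gzma*, *Gzmb*, *Cd247*, *Klf2*, *Sh2d1a* and *Mrpl58*. Against NK-like cells, chosen by genes that these cells had to lack, lower levels may be in part built in. Few T-like cells held the granzymes. *Gzmb* had UMIs in 10.8% and 10.8% of *Cd7*/*Xcl1*/*Nrgn* cells and in 2.44% and 7.87% of T-like cells, so by share of cells it was not lower. For *Gzma* the shares were 0 of 37 and 6 of 37 against 6 of 123 and 15 of 89. *Cd247*, the CD3 ζ chain that signals for T cell and NK receptors, was at 0.262 and 0.405 times the NK-like and 0.317 and 0.293 times the T-like level. *Klf2*, which keeps lymphocytes circulating through its target *S1pr1*, was at 0.293 and 0.453 times the NK-like and 0.244 and 0.459 times the T-like level. *Sh2d1a*, the adaptor SAP, was at 0.292 and 0.226 times and 0.498 and 0.360 times, and *Mrpl58*, a mitochondrial ribosomal protein, at 0.398 and 0.440 times and 0.377 and 0.393 times. Without the *Cd74*/*Cst3* cells, *Gzma* and *Klf2* stayed at least 2-fold below both classes in both libraries. *Gzmb* and *Sh2d1a* were then no longer so against T-like cells, nor *Cd247* against NK-like cells. A lower level of such genes in a sum over several kinds of cell can come from fewer cells with the gene or from less of it per cell, which summed counts do not separate. For the granzymes, fewer cells held a UMI than among NK-like cells. *Gzma* was in 0 of 37 and 6 of 37 cells against 204 of 205 and 163 of 166. *Gzmb* was in 4 of 37 and 4 of 37 against 171 of 205 and 146 of 166.

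By function, the lists showed where the *Cd7*/*Xcl1*/*Nrgn* cells parted from NK-like cells. Over all genes tested the median log2 ratio to NK-like cells was -0.27 in the control and -0.18 in Adipo Δ/Δ. Of 22 NK receptor genes, 12 were lower and none higher, and of 10 cytotoxic effectors 7 were lower and none higher. NK-like cells were chosen by *Klra4*, *Klra8* and *Prf1* and these cells by lacking them, so lower levels in both lists were in part built in. Of 18 lymphoid transcription factors, 5 were lower: *Tbx21*, the T-bet of type 1 lymphocytes, at 0.280 and 0.336 times, *Eomes* at 0.104 and 0.176 times, and *Zeb2*, *Prdm1* and *Irf8*. Of 6 cytokines and chemokines, *Ccl3*, *Ccl4*, *Ccl5* and *Ifng* were lower and *Ltb* was 14.4- and 4.15-fold higher. Of 5 genes of the group 1 innate lymphoid programme, 4 were higher. They were *Il7r* (56.6- and 63.8-fold), *Ltb*, *Tmem176b* and its neighbour *Tmem176a* (63.9- and 8.18-fold). The last pair stands in other lists too, and made up the higher genes of the group 3 innate lymphoid (2 of 2) and γδ T cell (2 of 3) programmes. Against T-like cells, 1 of 7 tested group 1 genes was higher and 1 lower. *Il7r* was present in 73 of 123 and 55 of 89 T-like cells, against 9 of 37 and 16 of 37 *Cd7*/*Xcl1*/*Nrgn* cells, so it did not set them apart from T-like cells. Of 9 genes in the list of dendritic cell markers, 4 were tested and all 4 were higher. They were the MHC class II genes *Cd74*, *H2-Aa*, *H2-Ab1* and *H2-Eb1*, which belong to antigen-presenting cells in general and do not single out dendritic cells. Among genes of migration and residency, *Cxcr3*, *Rgs2* and *Cd44* were higher, and *S1pr5*, *Klf2*, *Itga2* and *Itga4* were among those that were lower. Of 8 CD3 and receptor signalling genes, *Cd3d* (12.2- and 6.58-fold) and *Cd3g* (10.1- and 14-fold) were higher and *Cd247* lower. None of the 10 calmodulin binding partners of neurogranin differed by 2-fold in both libraries. Without the *Cd74*/*Cst3* cells, 8 of the 22 NK receptor genes were lower and *Cd226* was higher (3.17- and 2.70-fold). Of the 10 cytotoxic effectors, 7 were again lower. Of the group 1 list, 3 genes were then tested, and all 3 were higher: *Il7r*, *Ltb* and *Il21r*. No gene of the group 3 list, *Tmem176a* and *Tmem176b* among them, then had enough UMIs to be tested.

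Against T-like cells the direction of several lists was the opposite. Over all genes tested the median log2 ratio to T-like cells was 0.32 in the control and 0.20 in Adipo Δ/Δ. Of 9 NK receptor genes, 8 were higher, among them *Ncr1*, with 56 and 64 UMIs against 2 and 2 in T-like cells, *Klrk1*, the stress ligand receptor NKG2D (22.5- and 15.2-fold), and *Fcer1g* (25.6- and 24.7-fold). *Id2* was 7.04- and 3.65-fold and *Il2rb* 4.49- and 2.85-fold higher. Of 11 CD3 and receptor signalling genes 6 were lower, as were the 3 αβ constant chains: *Trac* was at 0.109 and 0.147 times, *Trbc1* at 0.316 and 0.358 times and *Trbc2* at 0.169 and 0.382 times the T-like level. T-like cells were chosen by coreceptors that these cells had to lack, so lower levels of T cell genes were in part built in. *Ccr7* had 1 UMI and none against 165 and 119 in T-like cells, and *Lef1*, a factor of naive T cells, was at 0.0702 and 0.177 times. *Bcl11b*, which commits cells to the T lineage, was at 0.350 and 0.219 times. Without the *Cd74*/*Cst3* cells, 6 of the 11 CD3 and receptor signalling genes were again lower. Of the 3 αβ constant chains, only *Trac* was then at least 2-fold lower in both libraries, at 0.137 and 0.241 times.

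Between the libraries, 69 of 1506 genes (4.58%) were at least 2-fold higher in Adipo Δ/Δ than in control *Cd7*/*Xcl1*/*Nrgn* cells and 24 (1.59%) at least 2-fold lower, with a median log2 ratio of 0.11 over all 1506 genes. For 35 of the 69, over 50% of the UMIs came from the *Cd74*/*Cst3* cells, which numbered 7 in the control and 11 in Adipo Δ/Δ and held 20.4% and 39.2% of the UMIs. A larger number of such cells and more of their transcripts per cell cannot be told apart in these sums alone. Per *Cd74*/*Cst3* cell, the MHC class II sum had a median of 97 UMIs in the control and 424 in Adipo Δ/Δ. Median depths of these cells were 8599 and 9382 UMIs, so for MHC class II both the number of cells and the UMIs per cell were larger in Adipo Δ/Δ. All 5 tested genes of the dendritic cell list, MHC class II genes and *Cd209a*, were higher, *H2-Eb1* by 5.13-fold (4.18 to 6.34; 108 and 702 UMIs), *H2-Aa* by 4.35-fold (3.72 to 5.12), *Cd74* by 4.05-fold (3.66 to 4.502), *H2-Ab1* by 3.75-fold (3.20 to 4.41) and *Cd209a* by 2.60-fold (1.67 to 4.16). *Capg* was 4.99-fold, *Marcks* 4.93-fold and *Cd209d* 5.08-fold higher.

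The ratios farthest from 1 came from single cells. *Mmp12*, a macrophage elastase, had no UMI in the control and 106 in Adipo Δ/Δ, 102 of them in 1 cell. *Lpl*, lipoprotein lipase, had 1 and 91 UMIs with 85 in 1 cell, and *Retnla*, a product of alternatively activated macrophages and dendritic cells, 10 and 281 with 263 in 1 cell. *S100a8* (20 and 183 UMIs) and *S100a9* (26 and 256), the calprotectin chains of neutrophils, had 178 and 243 in 1 cell. On the other side, *Mki67* (72 and 10 UMIs), *Top2a* (67 and 9) and *Hist1h1b* (53 and 11) had 61, 54 and 52 UMIs in 1 control cell. These genes describe 1 cell each and not the class.

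**Figure D5:**
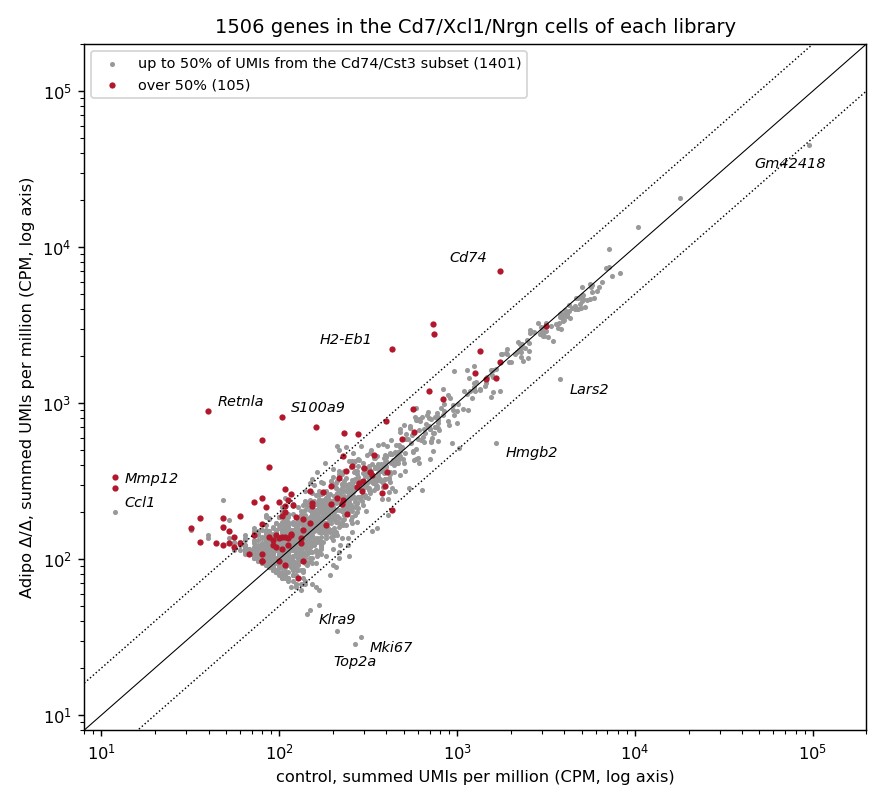
Each point is 1 of 1506 genes, by its level in the control (horizontal axis) and Adipo Δ/Δ *Cd7*/*Xcl1*/*Nrgn* cells (vertical axis) in CPM, both on log axes, with the line of equal levels and dotted lines at 2-fold. Red points are the 105 genes with over 50% of their UMIs from *Cd74*/*Cst3* cells, which make up many of those above the upper line, such as *Cd74* and *H2-Eb1*; genes under 3 UMIs in a library are drawn at 3 UMIs.

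Without the *Cd74*/*Cst3* cells, a choice made after seeing the data, 30 control and 26 Adipo Δ/Δ cells remained, and 30 of 991 genes (3.03%) were higher and 19 (1.92%) lower in Adipo Δ/Δ. *Trbc2* had 53 and 163 UMIs, 3.18-fold (2.32 to 4.42) higher. *Junb*, an immediate early transcription factor, had 25 and 101 UMIs, 4.17-fold (2.67 to 6.75) higher, and *Ier2*, another immediate early gene, was 2.19-fold (1.20 to 4.15) higher. They were 2 of 5 tested immediate early and dissociation response genes, and the only ones past 2-fold, so these cells differed in a list that digestion of tissue can move, and its part in the result was not tested. *Ccl4*, the chemokine MIP-1β, had 8 and 46 UMIs, 5.94-fold (2.78 to 14.6) higher, whereas in NK-like cells the same ratio was 0.536. *Tcf7*, a factor of T cell and innate lymphoid precursors, had 21 and 56 UMIs, 2.75-fold (1.64 to 4.79) higher, and *Emb*, an adhesion protein, 28 and 88 UMIs, 3.25-fold (2.10 to 5.16) higher. *Cd160* was 2.84-fold (1.57 to 5.39), *Il18r1*, a chain of the interleukin 18 receptor, 2.64-fold (1.50 to 4.84) and *Ikzf2*, the factor Helios, 2.56-fold (1.51 to 4.47) higher. *Klra9* was lower, at 0.419 times (0.213 to 0.782).

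Much of this difference lay in the NK receptor cells, 9 in the control and 14 in Adipo Δ/Δ. There *Junb* had 8 and 69 UMIs, *Trbc2* 7 and 69, *Tcf7* 3 and 29, *Emb* 4 and 48 and *Ccl4* 6 and 46. The Adipo Δ/Δ UMIs were spread over 9 of 14 cells for *Junb*, with 31 in 1 cell, and over 8 for *Trbc2*, 8 for *Tcf7*, 10 for *Emb* and 7 for *Ccl4*, with 16, 9, 11 and 20 in 1 cell. The NK receptor cells had medians of 12617 UMIs in the control and 7790 in Adipo Δ/Δ and held 96628 and 108392 UMIs in sum, and the part of depth in these counts was not tested. For the selecting genes, which the choice of cells used, the ratio without the *Cd74*/*Cst3* cells was 0.976 (0.755 to 1.26) for *Cd7*, 1.46 (1.19 to 1.80) for *Xcl1* and 1.21 (0.869 to 1.68) for *Nrgn*. Ratios of genes that marked the kinds had intervals that included 1 in the same cells. They were 1.31 (0.870 to 1.98) for *Cd3d*, 1.18 (0.812 to 1.72) for *Ncr1*, 1.14 (0.917 to 1.42) for *Ltb*, 0.906 (0.587 to 1.39) for *Cxcr3*, 1.15 (0.655 to 2.04) for *Gata3* and 0.969 (0.883 to 1.06) for *Ccl5*. Whether any of these ratios would recur in other mice was not tested, since each library is 1 sample.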

How the data were processed

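Cells were CD45+ Dapi- cells sorted from BAT, and 1 library per group was made with 10x 3′ v3.1 chemistry. The authors aligned the reads and counted UMIs with Cell Ranger (4.0.0 in the matrix header) on mm10, and deposited raw counts per gene and barcode, without normalization. The submitters' processing notes also list Seurat, which made none of the values used here. From these counts, barcodes with under 200 detected genes or over 10% mitochondrial UMIs were dropped. The cells, the gene lists (24, with 296 genes, of which 1 symbol was not in the files) and the rule for naming genes were chosen with earlier results of these data known. Genes named were the selecting genes, CD3 and receptor chains, list members, the 12 genes per side farthest from NK-like and T-like cells and the 10 genes per side with the largest library ratio. Genes of the comparisons of the CD3-bearing and NK receptor cells, and genes of the libraries without *Cd74*/*Cst3* cells, were named after their values were seen, as were *Hba-a1*, *Gm42418* and *Lars2*. Levels are UMIs summed over a class and scaled to 1000000 UMIs of that class. Genes with at least 50 UMIs over the classes compared were counted, in each library for classes and over both libraries otherwise, past a fold of 2, with fewer than 3 UMIs set to 3. Intervals (95%) were Clopper-Pearson for shares and conditional binomial for ratios. Thinned shares are expected values at 1000 UMIs per cell. Doublets were scored with Scrublet and not removed, because a caller that marks so few barcodes has not worked. Python 3.11.15, NumPy 2.4.6, SciPy 1.17.1, pandas 2.3.3, Scanpy 1.11.5 and matplotlib 3.10.9 were used. Positions are from GENCODE for GRCm38, matched by Ensembl identifier. Alternatives varied 1 choice at a time.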

Additional observations from a re-analysis of the deposited data

Results flagged for a closer look

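Among the *Cd7*/*Xcl1*/*Nrgn* cells, 12 genes stood past 2-fold between the libraries in 1 direction while NK-like or T-like cells stood past 2-fold in the other. The differences between the classes were not tested. Against NK-like cells, these were *S100a8*, with an Adipo Δ/Δ over control ratio of 7.22 against 0.152, and *S100a9*, with 7.76 against 0.210. In Adipo Δ/Δ, 1 cell held 178 of 183 UMIs of *S100a8* and 243 of 256 of *S100a9*.

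Against T-like cells, several genes of dividing cells were lower in the *Cd7*/*Xcl1*/*Nrgn* cells of Adipo Δ/Δ and higher in its T-like cells. The ratio of *Mki67* was 0.110 against 7.04, of *Top2a* 0.106 against 11.5, of *Hist1h1b* 0.164 against 45.8, of *Hmgb2* 0.336 against 3.46, of *Lmnb1* 0.307 against 5.77, of *Hist1h4d* 0.420 against 3.71 and of *Hist1h1e* 0.456 against 2.10. In the control, 1 cell held 61 of 72 UMIs of *Mki67*, 52 of 53 of *Hist1h1b* and 129 of 415 of *Hmgb2*, and control T-like cells held 2 UMIs of *Hist1h1b*. The other genes were *Gimap7*, at 0.443 against 2.84, *Gm49980*, at 0.425 against 2.11, and *Mxd4*, at 0.467 against 2.11. Of these, 1 cell held at most 13 of 89 *Gimap7* UMIs.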

How the results depend on the processing

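Of 161 alternative values for 14 results under 21 settings, 134 stayed within their interval or within 1.5 times the count given. The setting without called doublets is among them and could hardly move a value, since none of the *Cd7*/*Xcl1*/*Nrgn* cells was called. A ratio or order could still turn: the share in Adipo Δ/Δ was 0.875 times that in the control with a sum of at least 2 and 0.980 times without *Cd74*/*Cst3* cells, against 1.13, and the shares with CD3 were 30.3% and 31.2% at a mitochondrial limit of 5%, 28.6% and 30.8% at 2% and 28.3% and 31.7% with a sum of at least 2. A mitochondrial limit of 2% left 14 and 13 cells, a control share of 1.07%, 37 genes higher than NK-like cells, 21 higher and 9 lower than T-like cells, and 26 higher and 9 lower in Adipo Δ/Δ. The control share was 2.33% with a sum of at least 2 and 0.965% with at least 5, and among cells without *Csf1r* the shares were 2.66% and 3.61%. Thinning took the Adipo Δ/Δ share with *Trdc* to 6.72%. Without mitochondrial and ribosomal protein genes, 52 genes were higher and 62 lower than T-like cells. With at least 100 UMIs, 31 genes were higher and 100 lower than NK-like, 38 higher and 26 lower than T-like cells, and 23 higher and 8 lower in Adipo Δ/Δ. Without a minimum, 833 were higher and 226 lower than NK-like, 1310 higher and 69 lower than T-like cells, and 862 higher and 529 lower in Adipo Δ/Δ. Without cells with a CD3 UMI, 13 genes were lower in Adipo Δ/Δ. Without *Cd74*/*Cst3* cells, an alternative chosen after seeing the data, the Adipo Δ/Δ share was 1.29%, 29 genes were higher than NK-like cells and 30 higher in Adipo Δ/Δ. Fewer genes or cells enter the counts under the stricter settings and more under the looser ones, and otherwise the cause was not tested. No paired analysis was possible because each group had 1 library, and for the same reason no replicate could be left out. With 37 cells per library, the intervals of the shares with CD3 or *Trdc* were wider than the differences between the libraries.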

Other observations

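Haemoglobin transcripts stood out in the remaining cells of the control. *Hba-a1*, the haemoglobin α chain, had 42 UMIs in 6 of 10 of these cells (1093 CPM), at most 17 in 1 cell, and 1 UMI in the 3 Adipo Δ/Δ cells. Control NK-like cells held 7 UMIs (5.14 CPM) and control T-like cells 5 UMIs (7.01 CPM), at most 1 in any cell, and the other control *Cd7*/*Xcl1*/*Nrgn* cells held none.

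*Gm42418* (chromosome 17, 39846958 to 39848788), annotated as a long noncoding RNA, had 23767 UMIs (95006 CPM) in control and 14351 UMIs (45238 CPM) in Adipo Δ/Δ *Cd7*/*Xcl1*/*Nrgn* cells, a ratio of 0.476. The ratio was 0.454 in NK-like and 0.459 in T-like cells. *Lars2*, a mitochondrial tRNA synthetase, had 950 and 451 UMIs and a ratio of 0.374, against 0.391 and 0.365.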
